A study of Mus musculus with 4 samples.

Results

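The genes described here are 8 regulators and transcripts known from the identity of the jaws: Pitx1, Gsc, Hand1, Hand2, Pou3f3, Irx5 and the non-coding transcripts 2610017I09Rik and 2900092D14Rik. They were chosen by name from 22072 gene names in the deposited tables, and the choice was made with their upper against lower molar values known, so those values are a description and support nothing by themselves. RNA had been sequenced from the mesenchyme of molar tooth germs of mouse embryos at embryonic day 14, cut from frozen sections by laser capture. The 4 libraries were Msx1-/- upper molar, Msx1-/- lower molar, Msx1+/- upper molar and Msx1+/- lower molar, with 1 library in each group. The controls are labelled Msx1+/-, with 1 mutant copy of Msx1, the homeobox gene without which mouse tooth germs stop growing early. The series title and the library descriptions call them wild type instead, so whether the genotype differences below are from heterozygous or wild-type embryos is not settled by the labels. The strain is given as a mixed background, the mutant allele is not named, and the design text says that 3 pairs of embryos, control and mutant, went into the pools from which RNA was prepared, so no spread between embryos can be seen and no difference below has a replicate check.

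The upper jaw grows from the maxillary part and the lower jaw from the mandibular part of the first pharyngeal arch. In the mandibular part, endothelin signalling through its receptor Ednra switches on Dlx5 and Dlx6, which in turn maintain Hand1, Hand2, Gsc and Pitx1 and hold down genes of the maxillary programme such as Pou3f3 and Irx5. Pitx1 is a paired-type homeobox gene of mandibular mesenchyme and of the hindlimb, Gsc is a paired-type homeobox repressor, and Hand1 and Hand2 encode basic helix-loop-helix factors of the distal arch. Pou3f3 encodes a POU-domain factor whose loss in mice alters upper jaw bones.

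Values are FPKM (fragments per kilobase, scaled for the mapped fragments of a library), and differences are of log2(FPKM + 1), a scale on which changes of low genes come out too small. A gene was measured where its mean over the 4 libraries was at least 1 FPKM, and counted as higher or lower where its log2 difference reached 1. Of the 8 members 6 were measured, and Hand1 and Hand2 were not. Summed coverage of transcripts was between 264 and 410 megabases per library. The median log2 difference of all 10535 measured genes was 0.27 for upper minus lower molars in Msx1-/- and -0.08 in Msx1+/-, and for Msx1-/- minus Msx1+/- it was -0.03 in upper and -0.39 in lower molars. The Msx1-/- lower library was thus lower over most genes. Msx1 itself was at 126 FPKM in Msx1-/- upper and 85.9 FPKM in Msx1-/- lower molars, against 170 FPKM in Msx1+/- upper and 184 FPKM in Msx1+/- lower molars. Its transcript was therefore read in all libraries, and since neither the allele nor the exons behind the value are known, it checks no label. Prrx1, a gene of jaw mesenchyme, was at 117 to 163 FPKM and the dental mesenchyme gene Barx1 at 74.5 to 104 FPKM.

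Between the jaws, Pitx1 and Gsc were higher in lower molars and Pou3f3 and both non-coding transcripts were higher in upper molars, in either genotype. These 5 of the 6 measured members were counted in both genotypes, 3 as higher and 2 as lower in upper molars. Of all genes 0.161% were counted in both, 0.133% as higher and 0.0285% as lower. In Msx1-/- molars 6 members were counted by jaw, 4 higher and 2 lower, beside 3.62% of all genes (3.20% higher and 0.418% lower). In Msx1+/- molars 5 were, 3 higher and 2 lower, beside 1.70% of all genes (1.48% higher and 0.218% lower). Nothing is read from these shares, since the members were chosen on that contrast.

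Pitx1 (NM_011097, chromosome 13, 55926415 to 55932786, build mm9) had 3.98 FPKM in Msx1-/- upper and 45.8 FPKM in Msx1-/- lower molars. Its values in Msx1+/- molars were 1.72 FPKM in the upper and 19.0 FPKM in the lower library. Both lower libraries were far above both upper libraries, with no overlap. The level in lower molars was 11.5 times that in upper molars in Msx1-/- and 11.0 times in Msx1+/-, so the ratio between the jaws was nearly equal in the genotypes while the levels were not. The log2 differences, upper minus lower, were -3.23 and -2.88. Pitx1 had the most negative jaw difference of all measured genes in Msx1-/- and the next to most negative in Msx1+/-. The weakest Pitx1 value, that of Msx1+/- upper molars, rests on a mean coverage of 1.80 reads per transcript base, and the strongest on 42.3.

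Gsc (NM_010351, chromosome 12, 105709419 to 105711446) followed the same order at lower levels, with 2.06 FPKM in Msx1-/- upper and 7.13 FPKM in Msx1-/- lower molars. In Msx1+/- molars it had 0.660 FPKM in the upper and 4.59 FPKM in the lower library. The lower libraries again lay above the upper ones, by 3.45 times in Msx1-/- and 6.95 times in Msx1+/-. The log2 differences were -1.41 and -1.75, and with 5 in place of 1 added before taking log2 they were -0.78 and -0.76, which would not be counted. Mean coverage of Gsc was between 0.690 and 6.58 reads per base. The 250 bases before its annotated start are shown because Gsc is the lower-molar gene of the set that has an entry in the promoter table. They come from RefSeq on build GRCm38.p6 (minus strand, chr12:104473237-104473486), and capitals mark matches to the motifs searched.
Gsc: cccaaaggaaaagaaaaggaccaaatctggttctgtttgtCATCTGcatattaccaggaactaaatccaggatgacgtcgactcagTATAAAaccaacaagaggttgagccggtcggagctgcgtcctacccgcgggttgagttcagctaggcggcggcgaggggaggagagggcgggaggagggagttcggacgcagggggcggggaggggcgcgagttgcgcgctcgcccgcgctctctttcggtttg

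The motifs, searched on both strands, were TAATCC (bound by Pitx and Gsc factors), TAATTG (Dlx and Msx factors), CANNTG (the E-box of helix-loop-helix factors) and ATGNAAAT (an octamer-like POU site). CCAAT and TATAAA were added after the sequences had been read. The Gsc stretch held 1 E-box and 1 TATAAA and no match to the others. Among 32851 promoters of the RefSeq table, 66.2% held an E-box in the same 250 bases, 12.4% TATAAA, 6.25% TAATCC, 7.17% TAATTG and 5.03% ATGNAAAT.

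Hand1 and Hand2 gave almost no reads. Hand1 (NM_008213, chromosome 11) was listed at 0 FPKM in all 4 libraries. Hand2 (NM_010402, chromosome 8) was listed at 0 FPKM in Msx1-/- upper, Msx1+/- upper and Msx1+/- lower molars and at 0.119 FPKM in Msx1-/- lower molars, a mean coverage of 0.110 reads per base. No fold is given for them. Msx1-/- lower molars were also the library with the highest Pitx1 and Gsc values.

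Pou3f3 (NM_008900, chromosome 1, 42753991 to 42757054, mm9) ran opposite to Pitx1, with 17.9 FPKM in Msx1-/- upper and 0.808 FPKM in Msx1-/- lower molars. In Msx1+/- molars it had 32.3 FPKM in the upper and 3.03 FPKM in the lower library. Both upper libraries were well above both lower libraries, by 22.1 times in Msx1-/- and 10.7 times in Msx1+/-. Its log2 differences were 3.38 and 3.05. The lower-molar values rest on a mean coverage of 0.746 reads per base in Msx1-/- and 2.46 in Msx1+/-, so the larger ratio in Msx1-/- is against a value near the low end of what was read. On the log2(FPKM + 1) scale the jaw difference of Pou3f3 differed between the genotypes by 0.34 and that of Pitx1 by -0.35, Msx1-/- minus Msx1+/-. At least 1 in size was reached by 6.89% of all genes, and this difference was not tested for single genes.

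**Figure D1:**
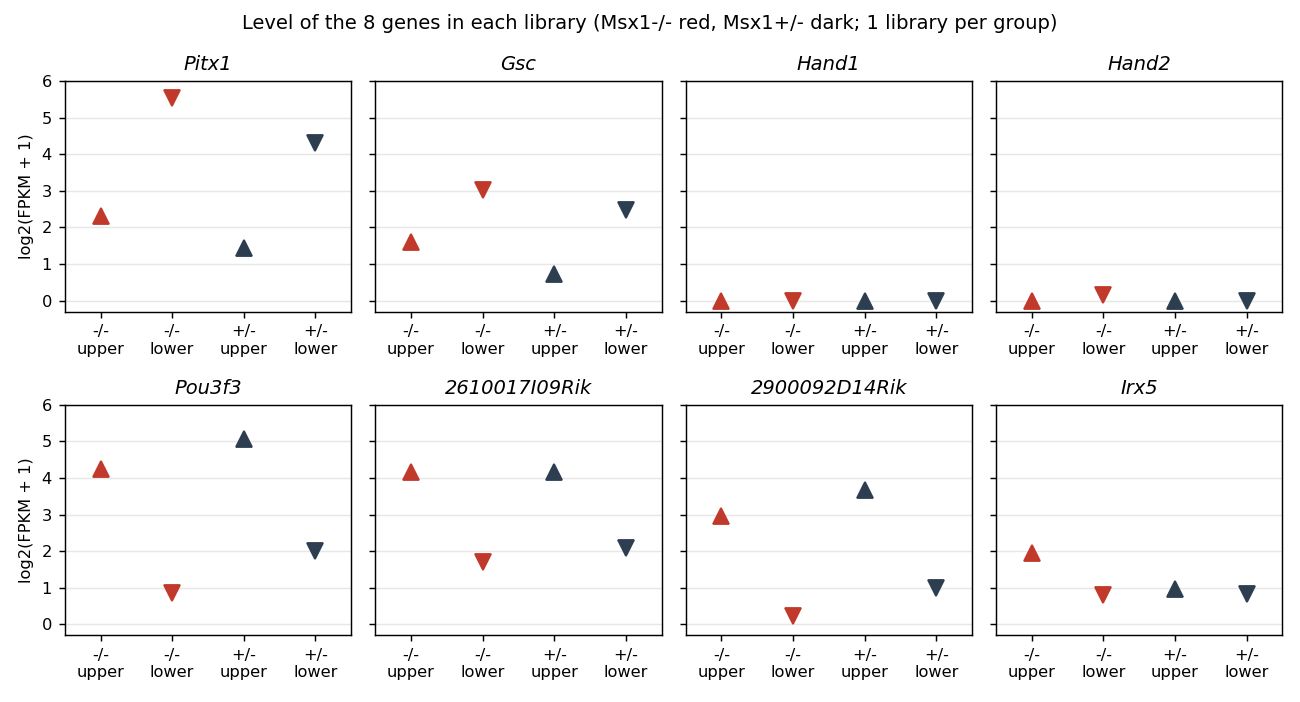
Level of each of the 8 genes in the 4 libraries, as log2(FPKM + 1) on the vertical axis, with upward triangles for upper and downward triangles for lower molars, red for Msx1-/- and dark for Msx1+/-. Each point is 1 library of pooled tissue, so there are no error bars. Pitx1 and Gsc are high in lower molars, Pou3f3 and both non-coding transcripts are high in upper molars, and Hand1 and Hand2 lie at or near 0.

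The transcripts 2610017I09Rik and 2900092D14Rik lie on either side of Pou3f3. 2610017I09Rik, named Pantr1 in the RefSeq and GENCODE tables, is a long non-coding RNA on the opposite strand (42705045 to 42751670 in mm9). It reads away from Pou3f3, so its higher coordinate is its start, with 2320 bases between that and the start of Pou3f3. 2900092D14Rik (42757181 to 42760021) begins 126 bases after the end of Pou3f3 on the same strand. The 3 entries do not overlap, but the amplified cDNA is not stated to keep strand, and a separate 2900092D14Rik transcript and one continued from Pou3f3 cannot be told apart with values per gene.

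2900092D14Rik had 6.79 FPKM in Msx1-/- upper and 0.166 FPKM in Msx1-/- lower molars. Msx1+/- molars gave 11.6 FPKM in the upper and 1.01 FPKM in the lower library. Its log2 differences were 2.74 and 2.66, with mean coverage in Msx1-/- lower molars of only 0.153 reads per base. 2610017I09Rik had 16.8 FPKM in Msx1-/- upper and 2.24 FPKM in Msx1-/- lower molars. Msx1+/- molars gave 16.9 FPKM in the upper and 3.28 FPKM in the lower library. Its log2 differences were 2.46 and 2.07. For both transcripts each upper library lay above each lower library, and for 2610017I09Rik the upper libraries of the genotypes were almost equal.

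Measured against Pou3f3 in the same library, which needs no scaling between libraries, the neighbours behaved differently. 2900092D14Rik was at 0.380 of the Pou3f3 level in Msx1-/- upper and 0.206 in Msx1-/- lower molars, and at 0.361 in Msx1+/- upper and 0.332 in Msx1+/- lower molars. 2610017I09Rik was at 0.938 and 2.77 of the Pou3f3 level in Msx1-/- upper and lower molars, and at 0.524 and 1.08 in Msx1+/- upper and lower molars. The share of 2900092D14Rik was thus similar in 3 libraries and lower in the fourth, while that of 2610017I09Rik was higher in the lower than in the upper molars of either genotype. The fourth library, Msx1-/- lower molars, had Pou3f3 at 0.808 FPKM (mean coverage 0.746) and 2900092D14Rik at 0.166 FPKM (mean coverage 0.153). The ratios 0.206 and 2.77 thus rest on levels near the low end of what was read.

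The stretches that frame Pou3f3 are shown because it and its neighbours differ together between the jaws. The first is the 250 bases before the annotated start of Pou3f3 (RefSeq, GRCm38.p6, plus strand, chr1:42695518-42695767), and the second is the whole gap between the end of Pou3f3 and the start of 2900092D14Rik (chr1:42700211-42700335), which is 125 bases long in that table. Capitals mark CCAAT.
Pou3f3: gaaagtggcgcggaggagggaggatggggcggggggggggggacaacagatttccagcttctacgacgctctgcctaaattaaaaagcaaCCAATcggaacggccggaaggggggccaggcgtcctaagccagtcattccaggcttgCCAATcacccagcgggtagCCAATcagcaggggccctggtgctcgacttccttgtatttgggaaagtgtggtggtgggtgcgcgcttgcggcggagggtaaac
gap: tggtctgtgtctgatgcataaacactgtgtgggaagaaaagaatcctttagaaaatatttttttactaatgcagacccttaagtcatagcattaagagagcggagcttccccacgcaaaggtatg

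The Pou3f3 stretch was 60.8% GC and held CCAAT at 3 places, a box that 33.8% of the 32851 promoters hold at least once in these bases. It held no match to the other motifs searched, and the gap, at 40.0% GC, held no match to any of them. A match or its absence in these windows describes the letters alone. Of the 8 members, 4 have an entry in that promoter table: Pou3f3, 2900092D14Rik, Gsc and Hand2.

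For distances between genes, the lowest coordinate of each gene was taken as its start, whatever its strand. Within 500 kb of the start of Pou3f3 the tables list 7 other genes, of which 6 were measured. Of these, 2610017I09Rik and 2900092D14Rik were the 2 counted by jaw. The other measured genes, Mrps9, Tgfbrap1, AI597479 and Fhl2, had differences from 0.05 to 0.41 in Msx1-/- and from -0.29 to 0.65 in Msx1+/-. Around Pitx1 16 of 25 listed genes were measured, with differences from -0.27 to 0.97 in Msx1-/- and from -0.61 to 1.16 in Msx1+/-. None was counted in both genotypes, and Caml, at 11.5 FPKM in Msx1+/- upper and 4.60 FPKM in Msx1+/- lower molars, was counted in Msx1+/- alone, in the direction opposite to Pitx1. Cxcl14, a chemokine gene on the far side of Pitx1, had jaw differences of -0.14 in Msx1-/- and -0.61 in Msx1+/-. Near Gsc, Hand2 and Irx5 no measured gene was counted by jaw, out of 2, 3 and 1. Near Hand1 1 of 10 was, Fam114a2, in Msx1+/- alone. A neighbour of Irx5, 4933436C20Rik, was below the limit for measured genes and so was not counted. It had 2.05 FPKM in Msx1-/- upper and 0.519 FPKM in Msx1-/- lower molars. In Msx1+/- molars it had 0.684 FPKM in the upper and 0.465 FPKM in the lower library. Its jaw difference was just above 1 in Msx1-/- and 0.201 in Msx1+/-, and like Irx5 it was highest in Msx1-/- upper molars.

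**Figure D2:**
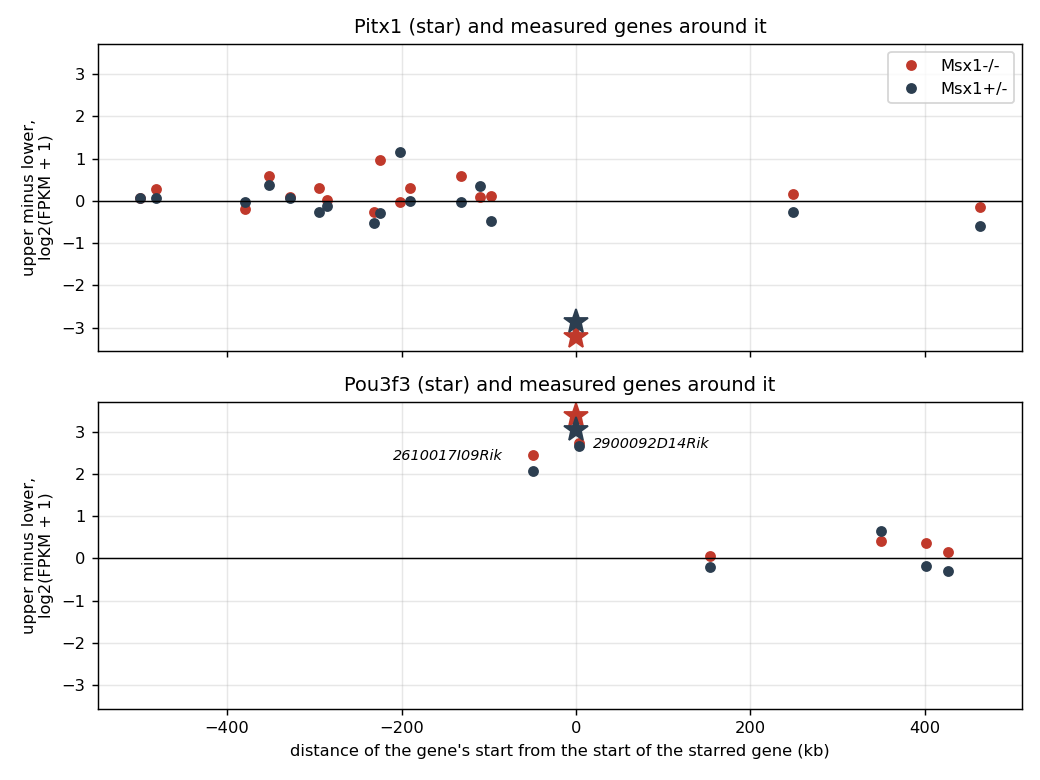
Jaw difference (upper minus lower, log2(FPKM + 1)) of measured genes against the distance in kb of their lowest coordinate from that of Pitx1 (top) or Pou3f3 (bottom), with Msx1-/- in red and Msx1+/- in dark. The starred genes stand at -3.23 and -2.88 for Pitx1 and at 3.38 and 3.05 for Pou3f3, and 2610017I09Rik and 2900092D14Rik stand near Pou3f3 while the other points lie between -0.61 and 1.16.

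Irx5 (NM_018826, chromosome 8, 94881695 to 94885355, mm9), an Iroquois homeobox gene, had 2.90 FPKM in Msx1-/- upper and 0.744 FPKM in Msx1-/- lower molars. In Msx1+/- molars it had 0.951 FPKM in the upper and 0.763 FPKM in the lower library. It was high in the Msx1-/- upper library and under 1 FPKM in the other libraries. With a mean of 1.34 FPKM, it passed the filter only through the library where it was high. It was counted by jaw in Msx1-/- (1.16) and not in Msx1+/- (0.15), and the filter favoured such a count. Rescaling by median of ratios put the Msx1-/- difference at 0.99, just under the limit, and it was also just under it with equal upper quartiles. Mean coverage of Irx5 was between 0.619 and 3.15 reads per base. Irx1, a relative on another chromosome, ran otherwise, with 0.741 FPKM in Msx1-/- upper and 0.775 FPKM in Msx1-/- lower molars, and 0.919 FPKM in Msx1+/- upper and 4.16 FPKM in Msx1+/- lower molars.

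**Figure D3:**
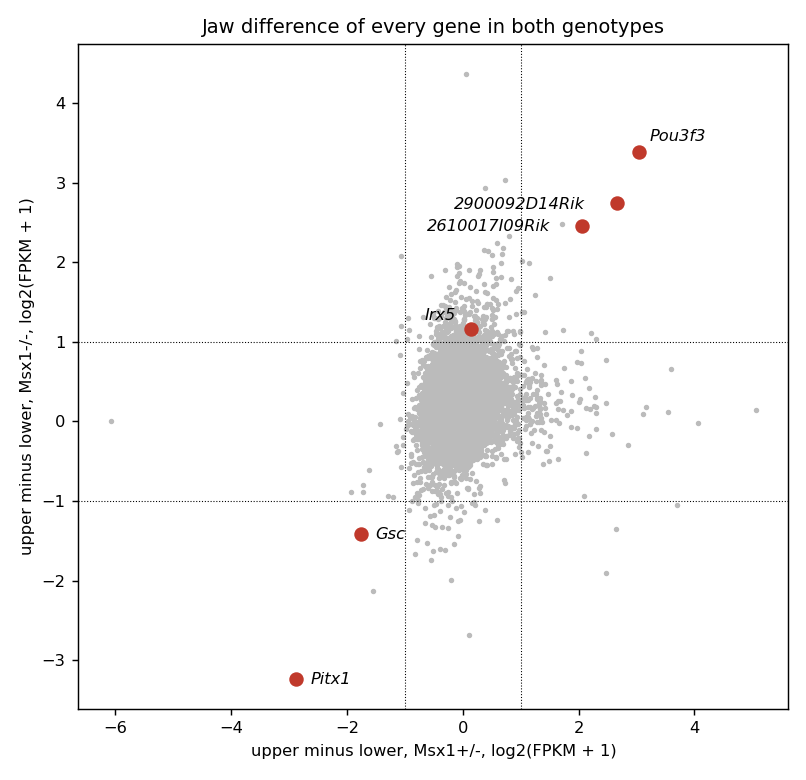
Jaw difference (upper minus lower, log2(FPKM + 1)) of every measured gene in Msx1-/- (vertical) and Msx1+/- (horizontal), with the 6 measured members in red and dotted lines at -1 and 1. Pitx1 and Gsc lie in the corner of lower-molar genes and Pou3f3, 2900092D14Rik and 2610017I09Rik in that of upper-molar genes, while Irx5 passes the line in Msx1-/- alone.

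Between the genotypes, in the upper molars 0 of the 6 measured members were counted, beside 4.34% of all genes (1.07% higher and 3.27% lower in Msx1-/-). In the lower molars 2 were, Pitx1 as higher and Pou3f3 as lower, beside 10.3% of all genes (0.864% higher and 9.42% lower). In both jaws 0 were counted, beside 1.99% of all genes (0.399% higher and 1.59% lower). Over all genes, 42 were higher and 168 lower in Msx1-/- in both jaws, and after rescaling by median of ratios 75 were higher and 121 lower.

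Pitx1 was higher without Msx1 in either jaw, by 2.31 times in upper molars (3.98 FPKM in Msx1-/-, 1.72 FPKM in Msx1+/-) and 2.41 times in lower molars (45.8 FPKM in Msx1-/-, 19.0 FPKM in Msx1+/-). The log2 differences were 0.87 and 1.23, or 0.90 and 1.61 above the median of all genes. The summed epithelial, cartilage, macrophage, and neuron and glia markers were also higher in Msx1-/- in both jaws, and their part in this was not tested. Pitx1 was counted in lower molars alone, and in both jaws with 0.1 in place of 1 added before taking log2. Pou3f3 was lower without Msx1 in either jaw, with log2 differences of -0.82 in upper molars (17.9 FPKM in Msx1-/-, 32.3 FPKM in Msx1+/-) and -1.16 in lower molars (0.808 FPKM in Msx1-/-, 3.03 FPKM in Msx1+/-). Taken from the median over all genes they were -0.79 and -0.77, and the count in lower molars was lost under each of the 3 rescalings, at -0.86 to -0.88. With 5 in place of 1 added before taking log2 it was also lost, at -0.47, and with 0.1 added the difference was -1.79.

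In an additive limma fit of genotype and jaw over all 4 libraries, with 1 residual degree of freedom per gene, the genotype difference of Pitx1 was 1.05 ± 0.33 (SE, adjusted p = 0.0339). That of Pou3f3 was -0.99 ± 0.32 (SE, adjusted p = 0.0403 by limma). Gsc (0.71, adjusted p = 0.121), 2900092D14Rik (-0.74, adjusted p = 0.1004), Irx5 (0.49, adjusted p = 0.262) and 2610017I09Rik (-0.21, adjusted p = 0.808) did not pass in that limma fit. The prior degrees of freedom were estimated as infinite, so the error of each gene was set by all genes and not by its own values. The fit holds no replicate, and its p-values do not speak for embryos.

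Gsc was at 2.06 FPKM in Msx1-/- and 0.660 FPKM in Msx1+/- upper molars and at 7.13 FPKM in Msx1-/- and 4.59 FPKM in Msx1+/- lower molars, log2 differences of 0.88 and 0.54. 2900092D14Rik differed by -0.70 and -0.78 in upper and lower molars. For 2610017I09Rik the values were -0.01 and -0.40, or 0.02 and -0.01 relative to the median of all genes, and its sign in upper molars turned with rescaling. The genotype difference of Irx5 was 0.999 in upper molars and -0.02 in lower molars. In upper molars it passed the limit under the 3 rescalings, at 1.01 to 1.04, and with 0.1 added before taking log2, at 1.51, and it was 0.41 with 5 added.

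**Figure D4:**
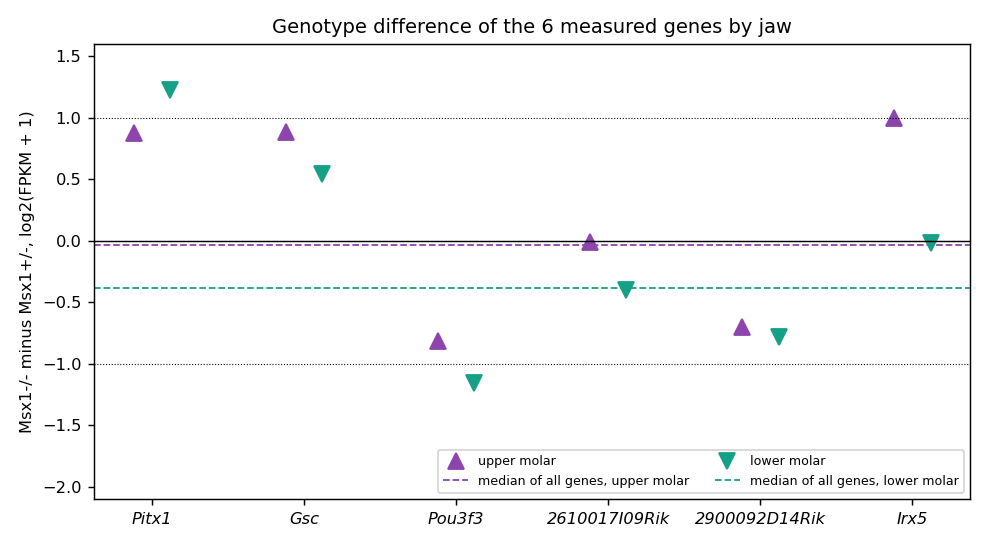
Msx1-/- minus Msx1+/- difference in log2(FPKM + 1) for the 6 measured members, in upper molars (upward triangles) and lower molars (downward triangles), with dashed lines at the median of all genes in each jaw (-0.03 and -0.39). Pitx1 and Gsc lie above 0 and Pou3f3 and 2900092D14Rik below it in both jaws.

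The ratio of Pitx1 to Pou3f3 within a library joins the opposite patterns and is free of scaling between libraries. It was 0.223 in Msx1-/- upper and 56.6 in Msx1-/- lower molars, and 0.0533 in Msx1+/- upper and 6.26 in Msx1+/- lower molars. Each lower library was thus on the Pitx1 side and each upper library on the Pou3f3 side, which is a description, since the genes were chosen with their jaw values known. Between the jaws the ratio differed 254-fold in Msx1-/- and 118-fold in Msx1+/-. Between the genotypes it was 4.18 times higher in Msx1-/- than in Msx1+/- upper molars and 9.04 times higher in Msx1-/- than in Msx1+/- lower molars. The ratio in Msx1-/- lower molars divides by a Pou3f3 value of 0.808 FPKM, with a mean coverage of 0.746 reads per base. The values 56.6, 254-fold and 9.04 times thus rest on a level near the low end of what was read.

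Of 28 genes listed for the mandibular arch, 16 were measured, and besides Pitx1 and Gsc none was counted in both genotypes. Without the members, the median of 14 genes was 0.34 in Msx1-/- and 0.01 in Msx1+/-, beside 0.27 and -0.08 over all genes. Dlx5 and Dlx6, the distal-less genes of the lower jaw, were higher in lower molars, as Pitx1 and Gsc were. Dlx5 had 7.44 FPKM in Msx1-/- upper and 14.6 FPKM in Msx1-/- lower molars, and 6.64 FPKM in Msx1+/- upper and 28.0 FPKM in Msx1+/- lower molars. Dlx6 had 1.07 FPKM in Msx1-/- upper and 2.60 FPKM in Msx1-/- lower molars, and 0.691 FPKM in Msx1+/- upper and 4.55 FPKM in Msx1+/- lower molars. Their log2 differences were -0.89 and -0.80 in Msx1-/- and -1.92 and -1.72 in Msx1+/-, so both were counted in Msx1+/- alone. Taken from the median of all genes they were -1.16 and -1.08 in Msx1-/- and -1.84 and -1.63 in Msx1+/-. These pass the limit in both genotypes, so the count in Msx1+/- alone depends on the shift over all genes. The endothelin receptor gene Ednra was at similar levels in all 4 libraries, with 24.6 FPKM in Msx1-/- upper and 30.8 FPKM in Msx1-/- lower molars, and 29.6 FPKM in Msx1+/- upper and 32.8 FPKM in Msx1+/- lower molars. Several genes of the list were higher in upper molars in both genotypes. They included Cited1, which encodes a transcriptional co-regulator (1.13 in Msx1-/- and 0.99 in Msx1+/-), the forkhead gene Foxf2 (1.90 and 0.29) and Bmper, which encodes a Bmp-binding protein (1.43 and 0.50). Of the 14 genes, 6 (42.9%) were higher and 3 (21.4%) lower in upper molars in both genotypes, beside 31.0% and 14.0% of all measured genes. Dlx3 was at 55.6 FPKM in Msx1+/- upper and at 11.9 FPKM or less in the other libraries. Dlx4, the ligand gene Edn1 and 9 other genes of the list, among them Hand1 and Hand2, were below the limit for measured genes.

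Of 27 genes listed for the upper jaw, several of which both arches use, 20 were measured. Besides Pou3f3 and its neighbours none was counted in both genotypes. Without the members, the median of 16 genes was 0.76 in Msx1-/- and 0.30 in Msx1+/-, above those of all genes (0.27 and -0.08). In both genotypes 13 of these 16 were higher in upper than in lower molars, in most by less than the limit, and 1 was lower. Of all measured genes 31.0% were higher and 14.0% lower in upper molars in both genotypes. Six2, a homeobox gene of jaw and palate mesenchyme, came nearest to the members, with 111 FPKM in Msx1-/- upper and 21.3 FPKM in Msx1-/- lower molars, and 122 FPKM in Msx1+/- upper and 69.3 FPKM in Msx1+/- lower molars. Its differences were 2.33 and 0.80. Aldh1a2, which makes retinoic acid (3.04 and 0.73), and Dlx2 (2.10 and 0.68) had the same form, counted in Msx1-/- alone. Aldh1a3 was the exception in both genotypes, at -0.71 and -0.05. The nuclear receptor genes Nr2f1 and Nr2f2 differed by 0.26 and 0.57 in Msx1-/- and by 0.45 and 0.06 in Msx1+/-.

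**Figure D5:**
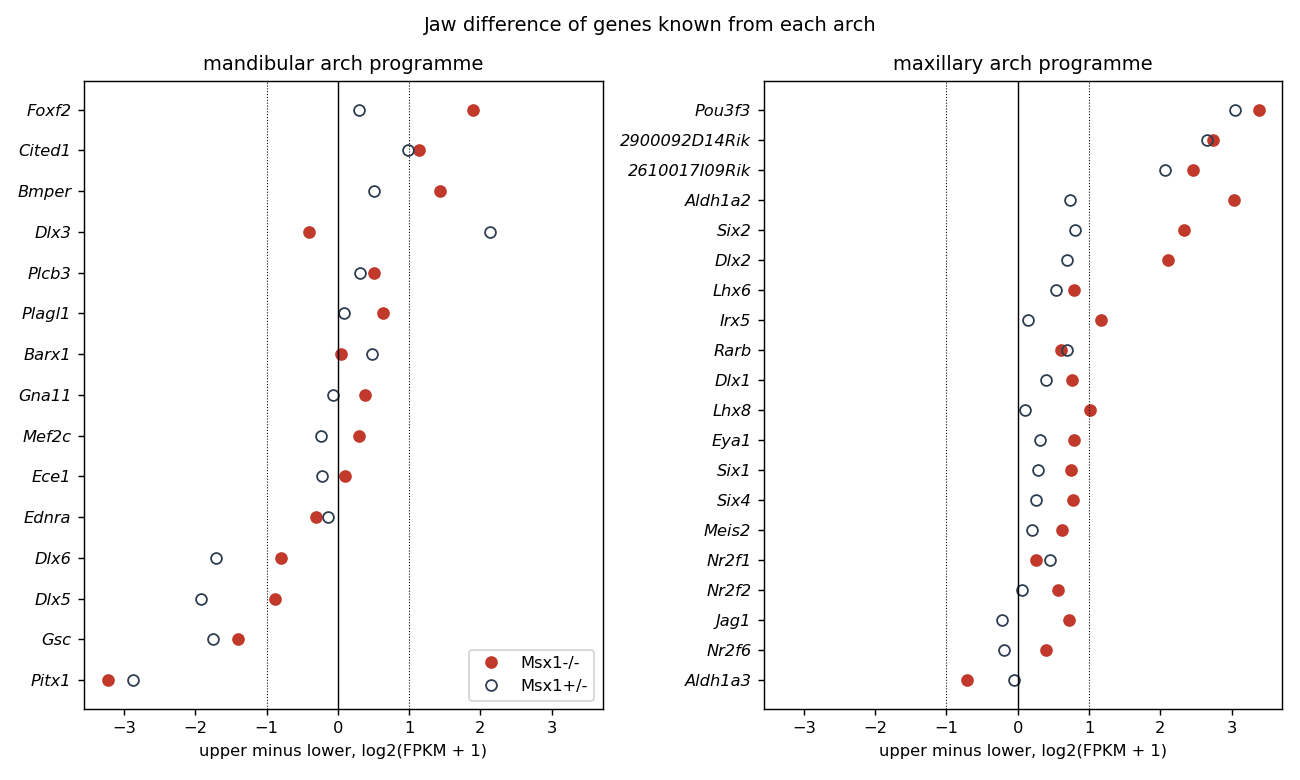
Jaw difference (upper minus lower, log2(FPKM + 1)) of the measured genes reported here from the mandibular list (left) and the maxillary list (right), with filled red points for Msx1-/- and open dark points for Msx1+/-. On the left Pitx1, Gsc, Dlx5 and Dlx6 are the genes furthest below 0 in both genotypes, with Cited1, Foxf2 and Bmper above 0 in both, and on the right most genes lie above 0 with Pou3f3 and its neighbours highest in Msx1+/-.

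Of 20 related homeobox, POU and basic helix-loop-helix genes, 7 were measured, and Mkx, an Iroquois-like homeobox gene of tendon, was the 1 counted by jaw in both genotypes (1.15 in Msx1-/-, 1.73 in Msx1+/-). The 3 other class III POU genes, Pou3f1, Pou3f2 and Pou3f4, were each under 0.5 FPKM in all libraries, and so of this class Pou3f3 alone was measured. Pitx3, Gsc2 and Otx2 were listed at 0 in all libraries. Of 18 dental mesenchyme genes, all measured, 0 were counted by jaw in both genotypes, with medians of 0.26 in Msx1-/- and 0.05 in Msx1+/-.

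Over the 4 libraries, likeness of pattern was taken as the Euclidean distance between log2(FPKM + 1) values centred on each gene's mean. Nearest to Pou3f3 of all genes were 2900092D14Rik (0.59) and 2610017I09Rik (1.23), against a median distance of 3.22. Among genes that are not members, Pla2g7 (1.33), Gm12191 (1.57), Hist2h4 (1.73), Six2 (1.75) and Klhl34 (1.79) followed. Pla2g7, which encodes a secreted phospholipase, had 5.60 FPKM in Msx1-/- upper and 0.184 FPKM in Msx1-/- lower molars, and 15.1 FPKM in Msx1+/- upper and 3.92 FPKM in Msx1+/- lower molars. Nearest to Pitx1 were Lrrn1 (1.44) and, of the members, Gsc (1.55), against a median distance of 3.44. Slc5a7 (1.94), Osr1 (2.003), Fgf18 (2.02) and Spr (2.03) came next. Lrrn1, a leucine-rich repeat membrane protein gene, had 1.84 FPKM in Msx1-/- upper and 11.4 FPKM in Msx1-/- lower molars, and 1.83 FPKM in Msx1+/- upper and 7.34 FPKM in Msx1+/- lower molars. With 4 libraries such distances describe these libraries and no more.

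In all, 17 genes were counted by jaw in both genotypes, 14 higher and 3 lower in upper molars, and 5 of them are members. After rescaling by median of ratios 21 were, 13 higher and 8 lower. Where both libraries of 1 jaw had to exceed both of the other by at least 1 on the log2 scale, 6 genes (0.0570% of those measured) were higher in upper and 2 (0.0190%) in lower molars. They were Pou3f3, 2610017I09Rik, 2900092D14Rik, Dhrs3, Gap43 and Klhl34 on the upper side and Pitx1 and Lrrn1 on the lower side.

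Markers of other cells differed between the jaws too. In bulk tissue, fewer cells of a type and less RNA per cell cannot be told apart. The 12 epithelial markers summed to 51.5 FPKM in Msx1-/- upper and 72.3 FPKM in Msx1-/- lower molars, and to 29.3 FPKM in Msx1+/- upper and 46.1 FPKM in Msx1+/- lower molars. The sums were thus higher in lower molars and higher in Msx1-/-, as Pitx1 was. Krt14 had 13.3 FPKM in Msx1-/- upper and 14.5 FPKM in Msx1-/- lower molars. With 8.69 FPKM in Msx1+/- upper and 14.8 FPKM in Msx1+/- lower molars, it was not higher in Msx1-/- among lower molars. Krt5, a keratin of basal epithelium, had 21.3 FPKM in Msx1-/- upper and 28.1 FPKM in Msx1-/- lower molars, and 7.18 FPKM in Msx1+/- upper and 17.0 FPKM in Msx1+/- lower molars. Krt15 had 3.15 FPKM in Msx1-/- upper and 9.09 FPKM in Msx1-/- lower molars, and 0.865 FPKM in Msx1+/- upper and 1.94 FPKM in Msx1+/- lower molars, and was counted as higher in Msx1-/- in both jaws. Cdh1 and Shh were the lowest of the list, under 0.15 FPKM in all libraries. In Msx1-/- lower molars 2 of 8 measured epithelial genes were counted as higher than in upper molars, and 1 of 8 was in Msx1+/-. Of all genes 0.418% were in Msx1-/- and 0.218% in Msx1+/-. Perp, 1 of the 2, passed the filter only through Msx1-/- lower molars, with 6.13 FPKM there and at most 1.34 FPKM elsewhere. The 6 macrophage markers had sums that were also higher in lower molars in either genotype and higher in Msx1-/- in either jaw. They summed to 30.7 FPKM in Msx1-/- upper and 39.6 FPKM in Msx1-/- lower molars, and to 26.0 FPKM in Msx1+/- upper and 31.4 FPKM in Msx1+/- lower molars. Single markers were mixed. Cd68 was lower in Msx1-/-, at 1.88 against 3.38 FPKM in upper and 2.10 against 2.60 FPKM in lower molars. Fcer1g was lower in Msx1-/- in upper molars alone. C1qa was higher in upper molars in both genotypes, with jaw differences of 0.79 in Msx1-/- and 0.09 in Msx1+/-. C1qb, C1qc and Csf1r kept the order of the sums between the jaws and between the genotypes. The 8 neuron and glia markers summed to 21.3 FPKM in Msx1-/- upper and 8.19 FPKM in Msx1-/- lower molars, and to 12.8 FPKM in Msx1+/- upper and 6.93 FPKM in Msx1+/- lower molars. Gap43 had 18.5 FPKM in Msx1-/- upper and 3.91 FPKM in Msx1-/- lower molars, and 8.996 FPKM in Msx1+/- upper and 3.54 FPKM in Msx1+/- lower molars. Nefl, a neurofilament gene, ran the other way, with 0.550 FPKM in Msx1-/- upper and 3.52 FPKM in Msx1-/- lower molars, and 0.658 FPKM in Msx1+/- upper and 0.829 FPKM in Msx1+/- lower molars. Tubb3, Stmn2, Elavl4 and Sox10 were each under 0.8 FPKM in every library. The part of the epithelial, macrophage and neuron and glia markers in the values of Pitx1 and Pou3f3 was not tested. Cartilage markers summed to 15.5 FPKM in Msx1-/- upper and 22.6 FPKM in Msx1-/- lower molars. In Msx1+/- molars they summed to 8.67 FPKM in the upper and 6.50 FPKM in the lower library. These sums were higher in Msx1-/- in both jaws, as Pitx1 was. They did not keep the order of Pitx1 between the jaws in Msx1+/-. Only 3 of these markers were measured, and 8 were below the limit. Hapln1, a cartilage matrix gene, was counted as higher in Msx1-/- in both jaws (1.10 in upper and 2.07 in lower molars). The other measured ones, Col2a1 (0.89 and 1.46) and Sox9 (0.61 and 0.61), were also higher in both. Sox5, below the limit, was lower in Msx1-/-, at 0.441 against 1.14 FPKM in upper and 0.0712 against 0.282 FPKM in lower molars. Of the skeletal muscle markers, Tnnt1 had 0.493 FPKM in Msx1-/- upper and 1.89 FPKM in Msx1-/- lower molars, and 0.686 FPKM in Msx1+/- upper and 1.99 FPKM in Msx1+/- lower molars, which was also higher in lower molars. Chrna1 was at 1.52 to 2.70 FPKM, and Myod1, Myog, Myf5 and Pax7 were under 0.05 FPKM throughout. The part of cartilage and muscle markers was likewise not tested.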

How the data were processed

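The 4 libraries were made, per the labels' protocols, from laser-captured molar mesenchyme with the Qiagen RNeasy micro kit and the NuGEN Ovation RNA-Seq v2 assay. Bowtie 0.12.7, TopHat 1.4.1 and build mm9 are named, per the submitters' processing notes. Per the file headers, the authors deposited FPKM, a coverage signal and a status flag in 28107 entries under RefSeq accessions, in the columns of Cufflinks. Coverage was FPKM times a constant in each library. Whole reads were not recovered, so no counting interval is given.

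FPKM was summed per gene name (22072 names). Names with a failed entry (66) and small RNA names (717) were left out, and a mean of at least 1 FPKM was required, which left 10535 genes. Each member has a single entry. Differences of log2(FPKM + 1) used Python 3.11.15 and numpy 2.4.6, and limma 3.58.1 was an alternative. With 1 library per group there is no test of single genes otherwise, and the code that makes the calls by a log2 difference of 1 was tested on simulated data. The members and lists were chosen with earlier results of these data known. Lists held 154 distinct symbols, 150 of them in the tables. Genes named were the members, Msx1, list members counted by jaw in both genotypes or with the largest jaw differences, counted neighbours within 500 kb, and the 5 nearest patterns to Pitx1 and to Pou3f3. Other genes were named after their values were seen. Alternatives were values of 0.1 and 5 added before log2, other filters, 3 rescalings and the highest entry per gene. Some listed genes are not reported here by name, though sums and medians of lists include them.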

Additional observations from a re-analysis of the deposited data

Results flagged for a closer look

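In 4 genes reported here, of the members and arch lists, a difference ran in opposite directions in the 2 jaws or genotypes and the values differed by at least 1, which was not tested. For Irx5 the genotype difference was 1.01 larger in upper than in lower molars (0.999 and -0.02). In Dlx5 it was 1.04 larger in upper molars (0.14 and -0.89), and in Foxf2 it was 1.61 larger (0.07 and -1.54). The jaw difference of Dlx3 was -0.40 in Msx1-/- and 2.14 in Msx1+/-, a difference of -2.54.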

How the results depend on the processing

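The number of members counted by jaw in both genotypes (5) was 3 with a mean of at least 5 FPKM, which leaves out Gsc and 2900092D14Rik, 4 with 5 added before log2, and 5 in the other settings run. No member changed the direction of a called difference. The number counted by genotype in both jaws (0) was 1, Pitx1, with 0.1 added, and 0 otherwise. Over all genes, the 17 counted by jaw became 62 with 0.1 added and 6 with 5 added, and limma called 85. The 210 counted by genotype became 367 with 0.1 added, 80 with 5 added and 130 under the 5 FPKM filter, and limma called 584. Of the single jaw differences of members 85 kept their side of the limit and 5 lost it, and of the genotype differences 79 kept it, 7 gained it and 4 lost it. The kept ones include those under the other filters and the highest entry per gene. There a member's difference could not change, so those settings say nothing about how firm it is. No paired analysis was possible because each group has 1 library and no replicate numbers, though the limma fit compared the genotypes with jaw as a term. Low coverage limits the values of Gsc, Irx5 and the lower-molar values of Pou3f3 and 2900092D14Rik.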

Other observations

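Genes of the arch lists that were too low to be measured were looked at after their values were seen. Of 16 such genes, 9 had their highest value in Msx1-/- upper molars, 3 in Msx1-/- lower, 1 in Msx1+/- upper and 1 in Msx1+/- lower molars, and 2 were listed at 0 throughout. The share over all unmeasured genes was not computed, so nothing is read from this count. Msx1-/- upper molars also had the most genes at 1 FPKM or more, 10562 against 10061 to 10534 in the other libraries. Irx3, which lies in the same Iroquois cluster as Irx5, had 1.08 FPKM in Msx1-/- upper and 0.274 FPKM in Msx1-/- lower molars, and 0.215 FPKM in Msx1+/- upper and 0.263 FPKM in Msx1+/- lower molars. Irx6, the third gene of that cluster, had 0.198 FPKM in Msx1-/- upper molars and at most 0.0168 FPKM elsewhere. Foxl2, a forkhead gene known from the eyelids, was at 0.324 FPKM in Msx1-/- upper molars and listed at 0 in the other libraries. The Alx genes of facial mesenchyme, Alx1 (0.719 FPKM) and Alx4 (1.02 FPKM), were also highest in Msx1-/- upper molars. All of these levels are near the limit of what was read.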
